A study of Homo sapiens with 12 samples.

Results

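K/VP.5 is a clone of K562 human leukemia cells that was selected for resistance to etoposide, a drug that traps DNA topoisomerase II on cut DNA. RNA-seq counts from 4 K/VP.5 libraries were compared with counts from 4 libraries of parental K562 cells, 8 of the 12 libraries in the series, across 18626 genes with enough reads to be tested out of 60671 counted. K562 cells were grown in DMEM with 10% serum and sampled in log phase, and K/VP.5 cells, which descend from K562 cells exposed to etoposide first intermittently and then continuously, were grown and sampled in the same way. The remaining 4 libraries are from K562/SSedit-2, a K562 clone in which Cas9 and a repair template changed a 5′ splice site of TOP2A. They took part in the filter on low counts, the scaling and the estimate of the spread between libraries, and their levels are given beside some genes.

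K/VP.5 is a single clone, so what selection for resistance brought and what the founding cell already carried cannot be told apart. The labels do not say whether the libraries of a line came from separate cultures, so p-values measure the spread between these libraries, which may be technical. Total counts ranged from 36883518 to 43648830 in K562 and from 28981722 to 39944440 in K/VP.5. Levels are CPM, read counts relative to library size after scaling by the TMM method, and 3 reads were worth 0.0691 to 0.102 CPM. CPM is not corrected for gene length, so levels are compared between lines and not between genes. Values with ± are means with the SD over the 4 libraries of a line, and values of single libraries are given in the order of replicates 1 to 4, without overlap between the lines unless an overlap is stated. K562 replicate 1 stood apart from the other K562 libraries, with a chi-square statistic per degree of freedom of 53.5 to 56.4 against each of them, where the other pairs within either line gave 4.82 to 18.4. Among 14 genes that mark K562 as an erythroleukemia line, all 14 were tested and 3 passed the cutoffs given below, each of them higher in K/VP.5. Their summed level, to which the most abundant members contribute most, was 4162 to 5375 CPM in K562 and 3722 to 3919 CPM in K/VP.5.

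As background, topoisomerase II passes one DNA duplex through a transient cut in another, and etoposide turns the cut enzyme into a lesion. Cells can resist such drugs by making less of the enzyme, by exporting the drug through ABC transporters, by repairing the lesion, or by tolerating the damage. K562 arose from chronic myeloid leukemia and depends on the BCR-ABL1 fusion kinase. It expresses embryonic and fetal globins, and it can be pushed toward red cell or megakaryocyte features.

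TOP2A, which encodes topoisomerase II alpha and lies at chr17:40388525-40417896 of GRCh38, stood at 488, 352, 380.02 and 388 CPM in the K562 libraries and at 281, 269, 282 and 268 CPM in the K/VP.5 libraries. Every K/VP.5 value was below every K562 value, and the exact two-sided permutation test of the means gave p = 0.0286, the smallest that 4 against 4 libraries allow. The log2 fold change was -0.55 (SE 0.09, edgeR adjusted p = 8.58e-05), a fall that did not reach the 2-fold cutoff used below. The count per gene does not separate transcripts, so it also takes in the shorter TOP2A transcript, ended within an intron, that K/VP.5 is known to make, and it is not the level of the full-length transcript alone. K562/SSedit-2 held 192 ± 16 CPM (SD, n = 4). TOP2B, the second topoisomerase II gene, held 302, 284, 287 and 287 CPM in K562 and 185, 197, 192 and 170.04 CPM in K/VP.5, again with no overlap, at a log2 fold change of -0.64 (SE 0.06). TDP2, whose product removes topoisomerase II from DNA ends, went from 49.995 ± 1.83 to 39.7 ± 1.48 CPM (log2 fold change -0.33). Of 30 topoisomerases and genes that repair their DNA adducts, 29 were tested and 0 passed the cutoffs in edgeR, DESeq2 or limma voom (beside 15.6% of all tested genes in edgeR). At an unadjusted edgeR p under 0.05, 5 were higher and 10 lower, and the same numbers passed a 10% false discovery rate with any fold. Among all 18626 tested genes, 4882 were higher and 4865 lower at that rate. The list's median log2 fold change was -0.09, beside 0.0067 over all tested genes.

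Across the transcriptome, 2914 genes, 15.6% of those tested, passed the cutoffs of a 2-fold change at a 10% false discovery rate in edgeR's quasi-likelihood test. Of these, 1673 were higher in K/VP.5 (8.98% of tested genes) and 1241 were lower (6.66%). Without K562 replicate 1 the count was 2988, with 1780 higher and 1208 lower. An 8-fold change or more was seen for 450 higher and 264 lower genes, and 32-fold or more for 193 higher and 94 lower genes. The libraries of the lines did not overlap for 8000 genes, 43.0% of those tested. With the fold cutoff left out, 9747 genes passed, 4882 higher and 4865 lower.

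The 12 largest rises among genes of at least 10 CPM in either line, taken where libraries did not overlap, were HAND2, ZNF551, ZNF558, ZNF254, LANCL3, PHF2P2, PM20D2, TFAP2B, UGT8, GASK1B, PIWIL4 and ALDH5A1. HAND2 and TFAP2B encode transcription factors of heart, limb and neural crest development, and the 3 ZNF genes encode zinc finger proteins. UGT8 makes galactosylceramide, PIWIL4 binds small RNAs of the germ line, and ALDH5A1 oxidizes succinic semialdehyde, a product of GABA breakdown. PIWIL4 stood at 0.11, 0.0921, 0.108 and 0.146 CPM in the K562 libraries and at 49.2, 42.6, 45.9 and 39.3 CPM in the K/VP.5 libraries. ALDH5A1 stood at 0.0825, 0.0691, 0.108 and 0 CPM in K562 and 22.4, 19.3, 21.9 and 19.2 CPM in K/VP.5. Both genes had a handful of reads in K562 and a stable level in all 4 K/VP.5 libraries.

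The 12 largest falls chosen in the same way were H3C7, H2BC9, PGR, ADGRA3, OR51B5, MEF2C, OR51B4, B3GALT1-AS1, ARHGAP4, KCNMA1, TLX1 and GABRE. MEF2C, a transcription factor of muscle, lymphoid and megakaryocyte cells, held 58.9, 38.2, 42.8 and 43.9 CPM in the K562 libraries and 0.125, 0.106, 0 and 0.169 CPM in the K/VP.5 libraries. TLX1, a homeobox gene known as an oncogene of T-cell leukemia, fell from 18.4 ± 1.75 to 0.109 ± 0.0365 CPM. ARHGAP4, a GTPase-activating protein, fell from 61.8 ± 3.22 to 0.238 ± 0.0566 CPM. KCNMA1, the pore of the large-conductance calcium-activated potassium channel, stood at 28.3, 18.7, 19 and 19.8 CPM in K562 and 0.075, 0.106, 0.029 and 0.169 CPM in K/VP.5. GABRE, a GABA receptor subunit, fell from 99.96 ± 24 to 0.77 ± 0.26 CPM. K562 replicate 1 was the highest K562 library for 10 of the 12 genes, yet for all 12 each of the other 3 K562 libraries also stood far above K/VP.5. In K562/SSedit-2 the mean level was 56.5 ± 6.88 CPM for MEF2C, 19.8 ± 2.38 for TLX1 and 52.9 ± 7.71 for ARHGAP4.

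**Figure D1:**
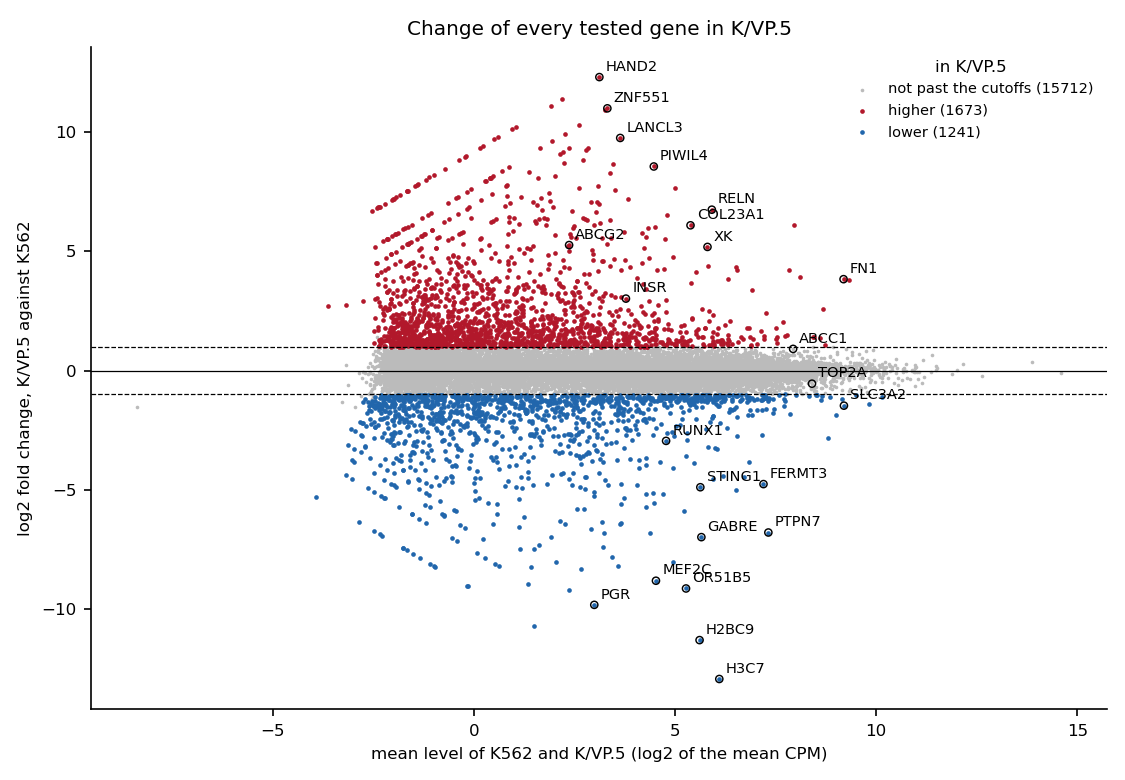
Log2 fold change of each tested gene in K/VP.5 against K562 (y axis) by the log2 of its mean CPM over the libraries of both lines (x axis), with the 1673 higher genes in red, the 1241 lower genes in blue, dashed lines at 1 and -1, and circled genes named in the text. TOP2A and ABCC1 lie between the dashed lines, and the diagonal rows of points are genes with almost no reads in one line, whose fitted fold change depends on the prior count.

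Some genes went from no more than background to a clear level, or the reverse. A gene was called switched on when no K562 library had more than 3 reads and every K/VP.5 library had at least 1 CPM, and switched off in the opposite case. By this rule 73 genes were switched on and 29 were switched off. Of the 73 genes switched on, 51 were protein-coding, 12 were long noncoding RNAs and 10 were pseudogenes, and 12 had no read in any K562 library. In K562/SSedit-2, 66 of the 73 also had at most 3 reads in every library, and 0 of the 73 reached 1 CPM in all of them. Leaving out 1 library at a time gave 73 to 87 genes switched on and 29 to 33 switched off.

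HAND2 had 0 reads in all 4 K562 libraries and 15.7, 17.7, 17.5 and 18.7 CPM in the K/VP.5 libraries, so K/VP.5 was at least 228-fold higher when K562 is set at 3 reads per library. ZNF850, a zinc finger gene, also had 0 reads in every K562 library and 9.07, 9.47, 9.18 and 8.88 CPM in K/VP.5, at least 119.9-fold higher by the same measure. NKX2-2, a homeobox gene of the spinal cord and pancreas, had 0 K562 reads and 4.12 ± 0.256 CPM (SD, n = 4), at least 54-fold higher. SLCO4C1, an organic anion transporter, had 0 K562 reads and 5.32, 11.5, 7.41 and 5.93 CPM, with replicate 2 the highest. ZNF551 had 1 read in 1 K562 library and 22.6, 19.6, 19.2 and 18.4 CPM in K/VP.5. LANCL3, of the lanthionine synthetase-like family, had 1 read in each K562 library and 23.6, 25.5, 25.1 and 25.3 CPM in K/VP.5. GATA4, a transcription factor of heart and gut development, was among the 73 at a lower level, with 1.54 ± 0.243 CPM in K/VP.5. The fitted fold change of genes with so few reads in one line moves with each single read, so their levels are given instead.

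Of the 73 genes switched on, 0.392% of tested genes, 16 (21.9%) are protein-coding genes named ZNF or ZFP, beside 2.01% of all tested genes, and 14 of the 16 lie on chromosome 19. The 300-base promoters of RefSeq (GRCh38.p14, from 250 bases before to 50 after the start) were found for 42 of the 51 switched-on protein-coding genes, whose median CpG count was 22.5. The median was 26 over 10373 matched promoters of tested protein-coding genes and 14 over all 27305 promoters in the table. Only 17 of the 23 switched-off protein-coding genes had a promoter in the table, fewer than 80%, so that group was not compared. The promoters of 3 genes switched on and 2 switched off are shown as examples of genes with almost no reads in one line and a steady level in the other, with each CpG in capitals. HAND2, ZNF551 and ZNF850 were switched on, and PGR and ADGRA3 were switched off. HAND2 lies at chr4:173530180-173530479 (minus strand), ZNF551 at chr19:57681727-57682026 (plus strand), ZNF850 at chr19:36772758-36773057 (minus strand), PGR at chr11:101129028-101129327 (minus strand) and ADGRA3 at chr4:22516017-22516316 (minus strand). The PGR window lies inside the span of the gene in GENCODE 44 (chr11:101029624-101129813), so it belongs to a start other than the outermost one there.
HAND2: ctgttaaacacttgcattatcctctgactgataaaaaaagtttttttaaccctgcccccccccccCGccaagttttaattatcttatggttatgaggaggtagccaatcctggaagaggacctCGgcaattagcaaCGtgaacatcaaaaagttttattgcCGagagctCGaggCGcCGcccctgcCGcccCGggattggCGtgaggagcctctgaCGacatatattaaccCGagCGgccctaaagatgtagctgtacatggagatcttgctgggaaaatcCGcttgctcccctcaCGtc
ZNF551: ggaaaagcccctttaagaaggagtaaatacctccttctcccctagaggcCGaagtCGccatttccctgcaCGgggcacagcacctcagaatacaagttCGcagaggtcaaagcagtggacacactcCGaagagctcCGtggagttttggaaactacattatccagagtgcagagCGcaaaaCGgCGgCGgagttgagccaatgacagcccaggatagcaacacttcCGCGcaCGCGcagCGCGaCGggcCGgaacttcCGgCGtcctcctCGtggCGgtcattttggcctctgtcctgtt
ZNF850: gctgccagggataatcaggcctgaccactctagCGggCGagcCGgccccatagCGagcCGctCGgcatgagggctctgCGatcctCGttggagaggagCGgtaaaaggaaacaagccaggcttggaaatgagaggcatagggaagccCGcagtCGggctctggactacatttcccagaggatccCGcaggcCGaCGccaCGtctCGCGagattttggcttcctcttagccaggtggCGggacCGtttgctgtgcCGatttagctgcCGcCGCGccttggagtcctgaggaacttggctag
PGR: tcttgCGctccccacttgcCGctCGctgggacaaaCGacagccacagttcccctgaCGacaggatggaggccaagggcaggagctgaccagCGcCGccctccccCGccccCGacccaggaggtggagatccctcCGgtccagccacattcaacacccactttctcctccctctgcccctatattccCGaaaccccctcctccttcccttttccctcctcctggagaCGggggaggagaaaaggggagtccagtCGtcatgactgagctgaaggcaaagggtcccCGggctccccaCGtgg
ADGRA3: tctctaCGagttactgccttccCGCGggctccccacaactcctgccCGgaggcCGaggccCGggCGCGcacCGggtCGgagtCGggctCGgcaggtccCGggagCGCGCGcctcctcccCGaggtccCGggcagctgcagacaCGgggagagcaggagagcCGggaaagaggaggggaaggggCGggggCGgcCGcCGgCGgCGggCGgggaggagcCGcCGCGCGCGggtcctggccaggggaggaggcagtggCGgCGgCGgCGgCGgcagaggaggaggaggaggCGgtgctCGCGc
The CpG count of these windows was 15 for HAND2, 22 for ZNF551, 23 for ZNF850, 15 for PGR and 40 for ADGRA3. No methylation was measured in these samples.

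Among the 29 genes switched off, 23 were protein-coding, 6 were olfactory receptor genes, pseudogene included, and 2 had no read in any K/VP.5 library. All 6 lie in the chromosome 11 cluster described below, and the share of such genes among all tested genes was not counted. PGR, the progesterone receptor, stood at 19.8, 15.5, 14.3 and 14 CPM in the K562 libraries and had 0, 0, 1 and 1 reads in K/VP.5. ADGRA3, an adhesion G protein-coupled receptor, stood at 8.85, 10.9, 10.9 and 10.5 CPM in K562 and had at most 1 read in a K/VP.5 library. Its mean in K562/SSedit-2 was 0.801 ± 0.224 CPM. ZFAND4 had 5.68 ± 0.964 CPM in K562 and 0 reads in all K/VP.5 libraries, so K562 was at least 66.2-fold higher. PPP1R3C, which targets a phosphatase to glycogen, went from 7.5 ± 0.776 CPM in K562 to 0.0554 ± 0.0191 CPM. SOD3, the extracellular superoxide dismutase, held 1.33 ± 0.17 CPM in K562, and MLKL, the executor of necroptosis, held 1.3 ± 0.142 CPM, and both had at most 3 reads in each K/VP.5 library. All 29 genes had more than 3 reads in at least 1 K562/SSedit-2 library, and 20 of them had at least 1 CPM in all 4.

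H3C7 and H2BC9, histone genes of the replication-dependent class, are neighbours on chromosome 6 within 1.93 kb. H3C7 held 262, 128, 82.2 and 75.5 CPM in the K562 libraries, where replicate 1 was the highest, and 1, 0, 0 and 1 reads in the K/VP.5 libraries. H2BC9 held 147, 84.9, 73.2 and 85.2 CPM in K562 and 0.1, 0.0266, 0 and 0 CPM in K/VP.5. Both genes were close to silent in K/VP.5 and high in every K562 library. The linker histone gene H1-3 nearby fell less, from 522, 495, 365 and 354 CPM in K562 to 229, 191, 213 and 205 CPM in K/VP.5, and did not pass the cutoffs without K562 replicate 1 (log2 fold change -0.97), without K562 replicate 2 (-0.9996) or with upper-quartile scaling (-0.98). Of 67 replication-dependent histone genes 53 were tested, and 5 were higher (9.43%, near the 8.98% of all tested genes) and 6 lower (11.3%, beside 6.66%), with a median log2 fold change of -0.23. Without K562 replicate 1 the lower genes numbered 3, and without K562 replicate 2 the higher genes numbered 3. Near-identical coding sequence makes the assignment of reads between histone genes uncertain.

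**Figure D2:**
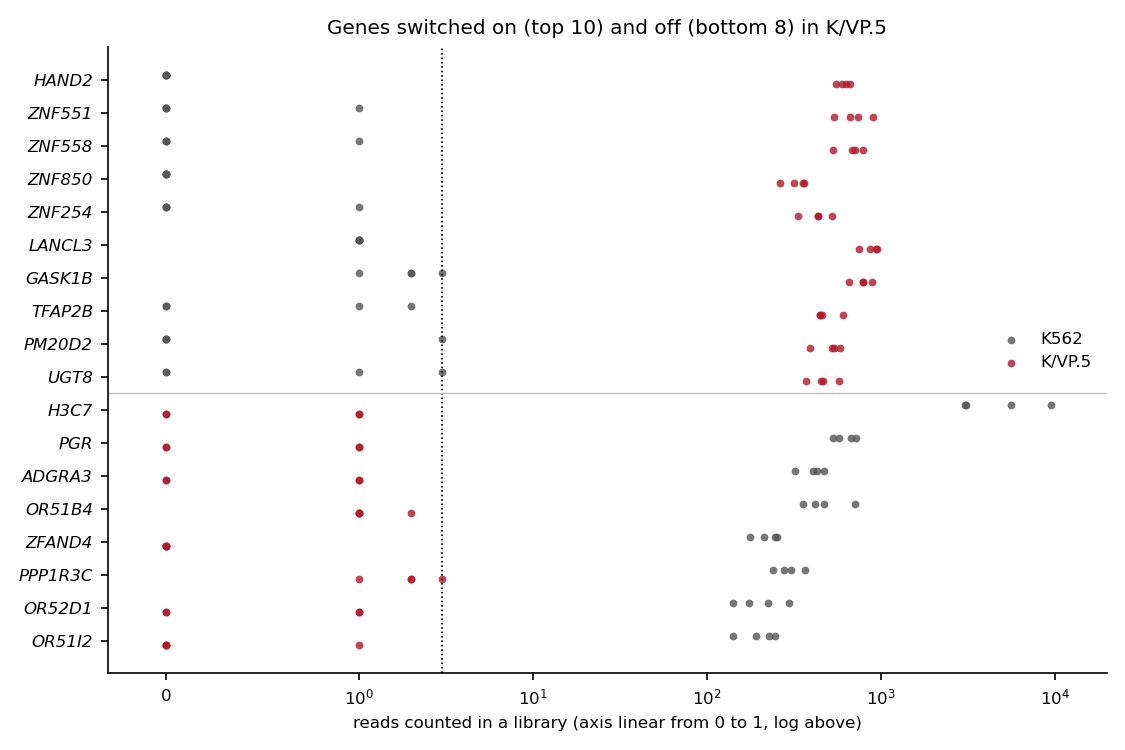
Reads counted in each of the 4 K562 (grey) and 4 K/VP.5 (red) libraries, for 10 genes switched on (upper block) and 8 switched off (lower block), on an axis that is linear from 0 to 1 and logarithmic above, with a dotted line at 3 reads and points of equal value on top of each other. Every high point lies above 100 reads and every low point at or below 3.

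Gained and lost expression lay together at some places on the chromosomes. Over 18085 sliding windows of 20 neighbouring tested genes, 99.0% had a median log2 fold change between -1 and 1, and the windows past these values merged into 11 regions with higher and 6 with lower expression. Because the regions were picked by these medians, high counts of called genes within them follow from the choice. Such counts below describe the regions and test nothing. The chromosome medians ran from -0.25 on X, -0.23 on chromosome 10 and -0.19 on chromosome 3 to 0.45 on chromosome 13. On chromosome 13, 62 of 307 tested genes (20.2%, beside 8.98% of all tested genes) were higher and 24 (7.82%, near the 6.66% of all tested genes) were lower. On X, 43 of 597 (7.20%, near 8.98%) were higher and 107 (17.9%, beside 6.66%) were lower.

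The lowest window, at a median of -7.30, lay on chromosome 11 in the olfactory receptor cluster beside the beta-globin genes. The merged region (chr11:4598672-6593758) had 15 of 35 tested genes lower (42.9%, beside 6.66% of all tested genes) and 6 higher (beside 8.98%). Within a stretch delimited after its values were seen (chr11:5301014-5505652), all 13 olfactory receptor genes and pseudogenes tested between OR51B4 and OR52D1 were lower, and together they had 17615 reads over the K562 libraries, 38 over the K/VP.5 libraries and 16138 over the K562/SSedit-2 libraries. OR51B5 stood at 101, 66.8, 70.6 and 70.3 CPM in K562 and 0.25, 0.106, 0.145 and 0 CPM in K/VP.5. These 13 genes were close to silent in K/VP.5 and were read in the other lines. In the globin cluster beside it, HBG2, a fetal gamma-globin gene, held 264, 187, 221 and 222 CPM in K562 and 252, 212, 244 and 246 CPM in K/VP.5, with overlap. HBG1, the other gamma-globin gene, was at 132 ± 4.12 and 218 ± 10.9 CPM without overlap but short of the fold cutoff. The gamma-globin genes are nearly identical, so reads may be split between them with error.

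Toward the end of X, 52 of 92 tested genes in a pair of neighbouring regions, picked by their window medians, were lower. In the first (chrX:149596556-153495516), 19 of 37 were lower (51.4%, beside 6.66% of all tested genes) and 1 was higher (beside 8.98%), at a median log2 fold change of -1.01. In the second (chrX:153724856-156027877), 33 of 55 were lower (60%) and 2 were higher, beside the same shares, at -1.12. The gene higher in the first was MAGEA9, which went from 0.776 ± 0.175 to 37.8 ± 3.12 CPM, with its near copy MAGEA9B at 1.125 ± 0.157 and 52.3 ± 3.27 CPM. In a region of chromosome 6 picked in the same way (chr6:143536845-149411613), 11 of 23 tested genes were lower (47.8%, beside 6.66% of all tested genes) and 0 were higher (beside 8.98%). There UTRN, a relative of dystrophin, fell from 41.3 ± 2.06 to 0.358 ± 0.036 CPM, PHACTR2, a phosphatase and actin regulator, from 72.9 ± 12.3 to 1.21 ± 0.258 CPM, and PLAGL1, an imprinted zinc finger gene, from 35.8 ± 6.23 to 2.79 ± 0.164 CPM.

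The highest window, at a median of 4.59, lay in a region of chromosome 19 rich in zinc finger genes (chr19:56314703-57858941). There 16 of 32 tested genes were higher (50%, beside 8.98% of all tested genes) and 1 was lower (beside 6.66%). Another such region of chromosome 19 (chr19:36144081-38317273) had 16 of 34 higher (47.1%) and 3 lower, beside the same shares. A region of chromosome 12 (chr12:53479669-54345083) had 12 of 28 higher (42.9%) and 0 lower, again beside 8.98% and 6.66%. It holds the HOXC cluster, where 9 of 10 tested genes were higher, at a median of 1.83. In a stretch of chromosome 13 (chr13:18816718-19171194), delimited after its values were seen, all 9 tested noncoding genes and pseudogenes were higher, with 38 reads over the K562 and 4494 over the K/VP.5 libraries. Pseudogenes can take reads of similar loci, so these assignments are uncertain. A region of chromosome 9 (chr9:35791003-63818462) had 24 of 45 genes higher (53.3%, beside 8.98% of all tested genes) and 2 lower (beside 6.66%). Whether copy number differs between the lines was not tested.

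**Figure D3:**
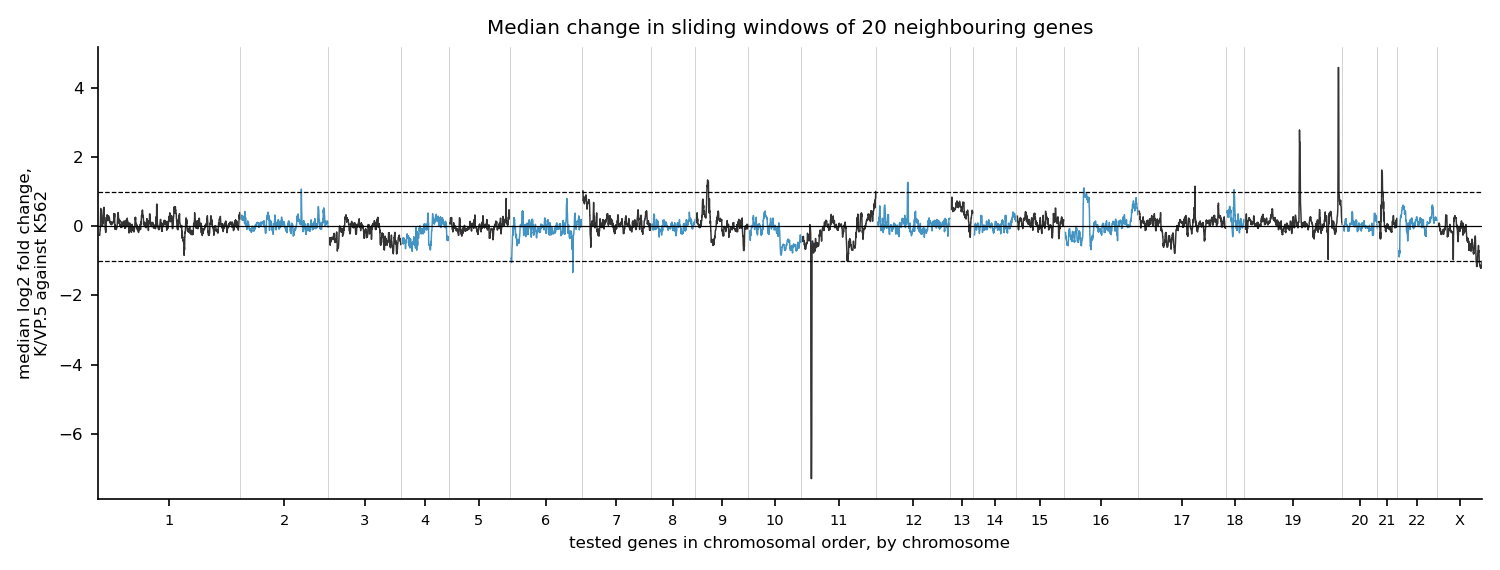
Median log2 fold change in K/VP.5 against K562 in sliding windows of 20 neighbouring tested genes (y axis), in chromosomal order and not to genomic scale (x axis), with chromosomes in alternating colours and dashed lines at 1 and -1. The deepest window (-7.30) is the olfactory receptor cluster on chromosome 11, and the highest (4.59) is a zinc finger cluster on chromosome 19.

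Among the transporters, drug exporters of the ABC family were looked at first. Of 45 ABC genes, 25 were tested, 4 were higher (16%, beside 8.98% of all tested genes) and 0 were lower (beside 6.66%) in edgeR, DESeq2 or limma voom. At an unadjusted edgeR p under 0.05, 13 were higher and 4 lower. The median log2 fold change was 0.33. ABCG2, the breast cancer resistance protein that exports many drugs, stood at 0.22, 0.414, 0.242 and 0.146 CPM in the K562 libraries and 13.2, 8.06, 9.61 and 9.39 CPM in the K/VP.5 libraries, a log2 fold change of 5.27 (SE 0.30, adjusted p = 3.94e-10). ABCA5, a lipid transporter, rose from 0.318 ± 0.0523 to 3.19 ± 0.591 CPM, ABCC6 from 0.477 ± 0.0692 to 1.43 ± 0.171 CPM, and ABCC3, a conjugate exporter, from 0.267 ± 0.0756 to 0.758 ± 0.257 CPM. ABCC1, the multidrug resistance protein MRP1, held 174, 169.6, 170.1 and 165 CPM in K562 and 311, 342, 310.3 and 315 CPM in K/VP.5, without overlap, at a log2 fold change of 0.91 (SE 0.06, adjusted p = 1.05e-09) that fell short of the cutoff. ABCB1, which encodes P-glycoprotein, had 2 reads over the 4 K562 libraries and 0 over the 4 K/VP.5 libraries and was not tested, so a difference was not detectable at this depth.

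Of 373 solute carrier genes 240 were tested, 28 were higher (11.7%) and 18 lower (7.5%), shares near the 8.98% and 6.66% of all tested genes, and the median was -0.01. SLC7A2, a carrier of cationic amino acids, had at most 2 reads in a K562 library and 8.77, 8.67, 7.47 and 7.59 CPM in the K/VP.5 libraries. SLC35F3 rose from 0.371 ± 0.0933 to 17.7 ± 2.39 CPM, SLC35D2, a nucleotide sugar carrier, from 0.0883 ± 0.0487 to 3.43 ± 0.329 CPM, and SLC37A1, a glucose 6-phosphate carrier, from 0.254 ± 0.121 to 7.89 ± 0.589 CPM. On the falling side, SLC3A2, the heavy chain that several amino acid carriers need at the membrane, stood at 844, 897, 872 and 836 CPM in K562 and 309, 289, 306 and 341 CPM in K/VP.5 (log2 fold change -1.47, SE 0.06). SLC43A3, a purine base carrier, stood at 113, 125, 111 and 114 CPM in K562 and 12.7, 10.8, 12 and 13.7 CPM in K/VP.5. SLC6A19, a carrier of neutral amino acids, fell from 46.2 ± 10.3 to 3.21 ± 0.473 CPM, and SLC18A2, the vesicular monoamine carrier, from 0.688 ± 0.236 to 0.12 ± 0.0403 CPM. SLC2A3, a glucose carrier, fell from 224 ± 30.8 to 98.3 ± 37.7 CPM, and SLC16A3, a lactate exporter, from 18.9 ± 4.48 to 6.34 ± 1.53 CPM.

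Of 174 ion channel genes 74 were tested, 21 were higher (28.4%, beside 8.98% of all tested genes) and 10 lower (13.5%, beside 6.66%), at a median of 0.34, and 13 were higher when only genes of at least 1 CPM in 4 samples were tested. CACNA1H, a T-type calcium channel, held 0.522, 0.598, 0.484 and 0.34 CPM in the K562 libraries and 17, 20.9, 18.7 and 20.8 CPM in the K/VP.5 libraries. CLCN4, a chloride-proton exchanger, rose to 0.735 ± 0.125 CPM. Besides KCNMA1, KCNE3, a potassium channel subunit, fell from 11.6 ± 0.964 to 0.213 ± 0.113 CPM and P2RX1, an ATP-gated channel of platelets, from 10.6 ± 3.21 to 0.535 ± 0.259 CPM.

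In signalling, 37 of 58 receptor tyrosine kinases were tested, 8 were higher (21.6%, beside 8.98% of all tested genes) and 4 lower (10.8%, beside 6.66%), and neither gene of the kinase that drives K562 passed the cutoffs. BCR held 529 ± 47.9 CPM in K562 and 549.6 ± 41.3 CPM in K/VP.5 (adjusted p = 0.606), with overlap, and ABL1 held 513 ± 16 and 584 ± 21 CPM (log2 fold change 0.19), counts that take in the fusion and the normal genes. INSR, the insulin receptor, stood at 4.43, 2.67, 2.69 and 2.31 CPM in the K562 libraries and 24.7, 25.7, 24.2 and 23.2 CPM in the K/VP.5 libraries, a log2 fold change of 3.02 (SE 0.16, adjusted p = 1.5e-10). FLT4, a receptor for lymphatic VEGF ligands, rose from 0.588 ± 0.142 to 14.9 ± 1.11 CPM, and FLT1 and EPHB3 rose at low levels to 0.87 ± 0.382 and 0.772 ± 0.19 CPM. The ephrin receptor EPHB6 fell from 6.72 ± 0.748 to 2.08 ± 0.184 CPM, its relative EPHA5 from 1.39 ± 0.159 to 0.111 ± 0.0538 CPM, and KIT, the stem cell factor receptor, from 2.44 ± 1.06 to 1.05 ± 0.116 CPM. The fall of KIT did not pass the cutoffs without K562 replicate 1, at a log2 fold change of -0.90.

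Of 49 genes around BCR and ABL1, 48 were tested, 2 were higher and 5 lower, a share of 14.6% near the 15.6% of all tested genes, with a median of -0.10. STAT5A, a transcription factor that BCR-ABL1 activates, held 1103, 1137, 1184 and 1132 CPM in K562 and 593, 564, 621 and 635 CPM in K/VP.5, with no overlap and just short of the cutoff (log2 fold change -0.92, SE 0.06). The kinase SRC fell from 45.8 ± 5.95 to 19.1 ± 1.54 CPM, the ubiquitin ligase CBLB from 7.23 ± 0.345 to 2.7 ± 0.409 CPM, and the phosphatase PTPN6 from 5.23 ± 0.64 to 2.1 ± 0.0448 CPM. PIK3CD, a PI3-kinase subunit, rose from 36.7 ± 3.63 to 78.1 ± 2.71 CPM and the kinase FYN from 1.19 ± 0.321 to 3.32 ± 0.501 CPM. PTPN7, a phosphatase of blood cells that acts on MAP kinases, had 404, 318, 281 and 263 CPM in the K562 libraries and 2.47, 3.62, 2.87 and 2.44 CPM in the K/VP.5 libraries (log2 fold change -6.79, SE 0.18). Among 33 feedback regulators of MAP kinases and immediate early genes, 30 were tested, 2 were higher and 2 lower, a share of 13.3%, again near that of all tested genes. SPRY1, an inhibitor of receptor signalling, was switched on at 3.35, 3.46, 3.42 and 4.41 CPM, and DUSP4, a MAP kinase phosphatase, rose to 1.18 ± 0.267 CPM. DUSP10 fell from 8.3 ± 2.02 to 0.774 ± 0.181 CPM and SPRY4 from 79.7 ± 21 to 37.3 ± 4.97 CPM. Without K562 replicate 1 the log2 fold change of DUSP4 was 4.08 instead of 3.41, and that of SPRY4 was -0.93, so that DUSP10 alone was lower.

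Of 73 cytokine and TNF family receptor genes 45 were tested, 5 were higher (11.1%, beside 8.98% of all tested genes) and 9 lower (20%, beside 6.66%). IL1R1, the interleukin 1 receptor, rose from 4.04 ± 0.474 to 19.8 ± 1.28 CPM and IFNLR1, of the lambda interferon receptor, from 0.815 ± 0.185 to 7.72 ± 0.798 CPM. IL9R fell from 5.37 ± 2.31 to 0.769 ± 0.204 CPM and OSMR, the oncostatin M receptor, from 2.47 ± 0.611 to 0.202 ± 0.0781 CPM. In the TGF-beta and BMP pathway, 41 of 54 genes were tested, 9 were higher (22%, beside 8.98%) and 3 lower (7.32%, near the 6.66% of all tested genes). The ligand INHBA rose from 0.456 ± 0.437 to 8.4 ± 0.422 CPM and LTBP1, which stores TGF-beta in the matrix, from 8.42 ± 1.57 to 45.9 ± 2.53 CPM. The 3 that fell were the receptor ACVR1, from 9.8 ± 1.09 to 1.83 ± 0.248 CPM, and the BMP target genes ID1, from 136 ± 18.9 to 47.7 ± 2.42 CPM, and ID3, from 54.1 ± 7.56 to 10.8 ± 2.02 CPM. INHBA was higher in K562 replicate 2 than in the other K562 libraries, and its log2 fold change of 4.16 was 5.06 without that library.

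In the WNT pathway 39 of 65 genes were tested and 8 were higher (20.5%, beside 8.98% of all tested genes), while 0 were lower (beside 6.66%) in edgeR, DESeq2 or limma voom. At an unadjusted edgeR p under 0.05, 19 were higher and 6 lower. LEF1, a transcription factor at the end of the pathway, stood at 0.247, 0.276, 0.269 and 0.146 CPM in K562 and 10.8, 11.9, 11.1 and 11.7 CPM in K/VP.5. The receptor FZD3 rose from 0.278 ± 0.101 to 4.93 ± 0.356 CPM and the inhibitor NKD2 from 0.356 ± 0.186 to 4.28 ± 0.439 CPM. Notch pathway genes were 9 higher and 4 lower of 25 tested (31 listed), 36% and 16% beside the same 8.98% and 6.66%. The receptor NOTCH1 fell from 139 ± 31.2 to 59.6 ± 12.2 CPM, its ligand JAG1 from 10.2 ± 2.12 to 1.56 ± 0.203 CPM and the target HEY1 from 13.6 ± 2.9 to 4.7 ± 0.664 CPM. LFNG, which adds sugars to Notch, rose from 0.422 ± 0.198 to 2.86 ± 0.44 CPM, and the target HEYL from 0.361 ± 0.087 to 1.68 ± 0.227 CPM.

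Of 86 collagens, laminins and other matrix genes, 48 were tested, 18 were higher (37.5%, beside 8.98% of all tested genes) and 9 lower (18.8%, beside 6.66%), and the median was 0.41. FN1, which encodes fibronectin, held 115, 71.1, 57.3 and 62.4 CPM in the K562 libraries and 1153, 1196, 1019 and 991 CPM in the K/VP.5 libraries, a log2 fold change of 3.84 (SE 0.21, adjusted p = 2.55e-10). The membrane collagen gene COL23A1 stood at 1.35, 1.31, 1.08 and 1.07 CPM in K562 and 85.9, 75.3, 83.3 and 84.8 CPM in K/VP.5. LAMC3, a laminin chain, rose from 0.685 ± 0.217 to 44.8 ± 2.36 CPM, COL15A1 from 0.613 ± 0.178 to 39.6 ± 2.85 CPM, and RELN, the secreted neuronal guidance protein reelin, from 1.11 ± 0.192 to 119.5 ± 4.77 CPM. The collagen IV gene COL4A5 fell from 7.97 ± 1.81 to 0.712 ± 0.124 CPM and the laminin chain LAMA4 from 4.59 ± 0.577 to 0.714 ± 0.137 CPM.

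Integrins were 4 higher and 4 lower of 19 tested (26 listed), 21.1% in each direction beside 8.98% higher and 6.66% lower among all tested genes. ITGB5 fell from 26.8 ± 3.8 to 5.45 ± 0.61 CPM and ITGB4 from 7.18 ± 2.56 to 2.63 ± 0.196 CPM, whereas ITGA7 rose from 1.32 ± 0.133 to 3.43 ± 0.232 CPM and ITGA3 from 0.615 ± 0.188 to 1.83 ± 0.372 CPM. FERMT3, or kindlin-3, which activates integrins in blood cells, stood at 296, 298, 278 and 261 CPM in the K562 libraries and 9.82, 11.2, 10.3 and 10.5 CPM in the K/VP.5 libraries. Cadherins and protocadherins were 5 higher and 5 lower of 20 tested (65 listed), 25% in each direction beside the same shares, with CDH18 falling from 17.9 ± 3.24 to 0.217 ± 0.0348 CPM and CELSR1, a planar polarity cadherin, rising from 0.447 ± 0.16 to 9.07 ± 0.725 CPM. Of 63 immunoglobulin-superfamily, selectin, tetraspanin and CD44 genes, 45 were tested, 9 were higher (20%, beside 8.98%) and 7 lower (15.6%, beside 6.66%). PECAM1, an adhesion molecule of endothelium, platelets and leukocytes, held 36.1, 23.2, 20.7 and 19 CPM in K562 and 0.45, 0.266, 0.261 and 0.169 CPM in K/VP.5. The tetraspanin CD53 of leukocytes fell from 16.2 ± 5.48 to 1.25 ± 0.0775 CPM. The tetraspanin CD9 rose from 0.0646 ± 0.0553 to 7.71 ± 0.895 CPM, the laminin receptor BCAM from 0.922 ± 0.241 to 10.6 ± 0.808 CPM and the junction protein JAM3 from 0.564 ± 0.228 to 6.13 ± 0.313 CPM.

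**Figure D4:**
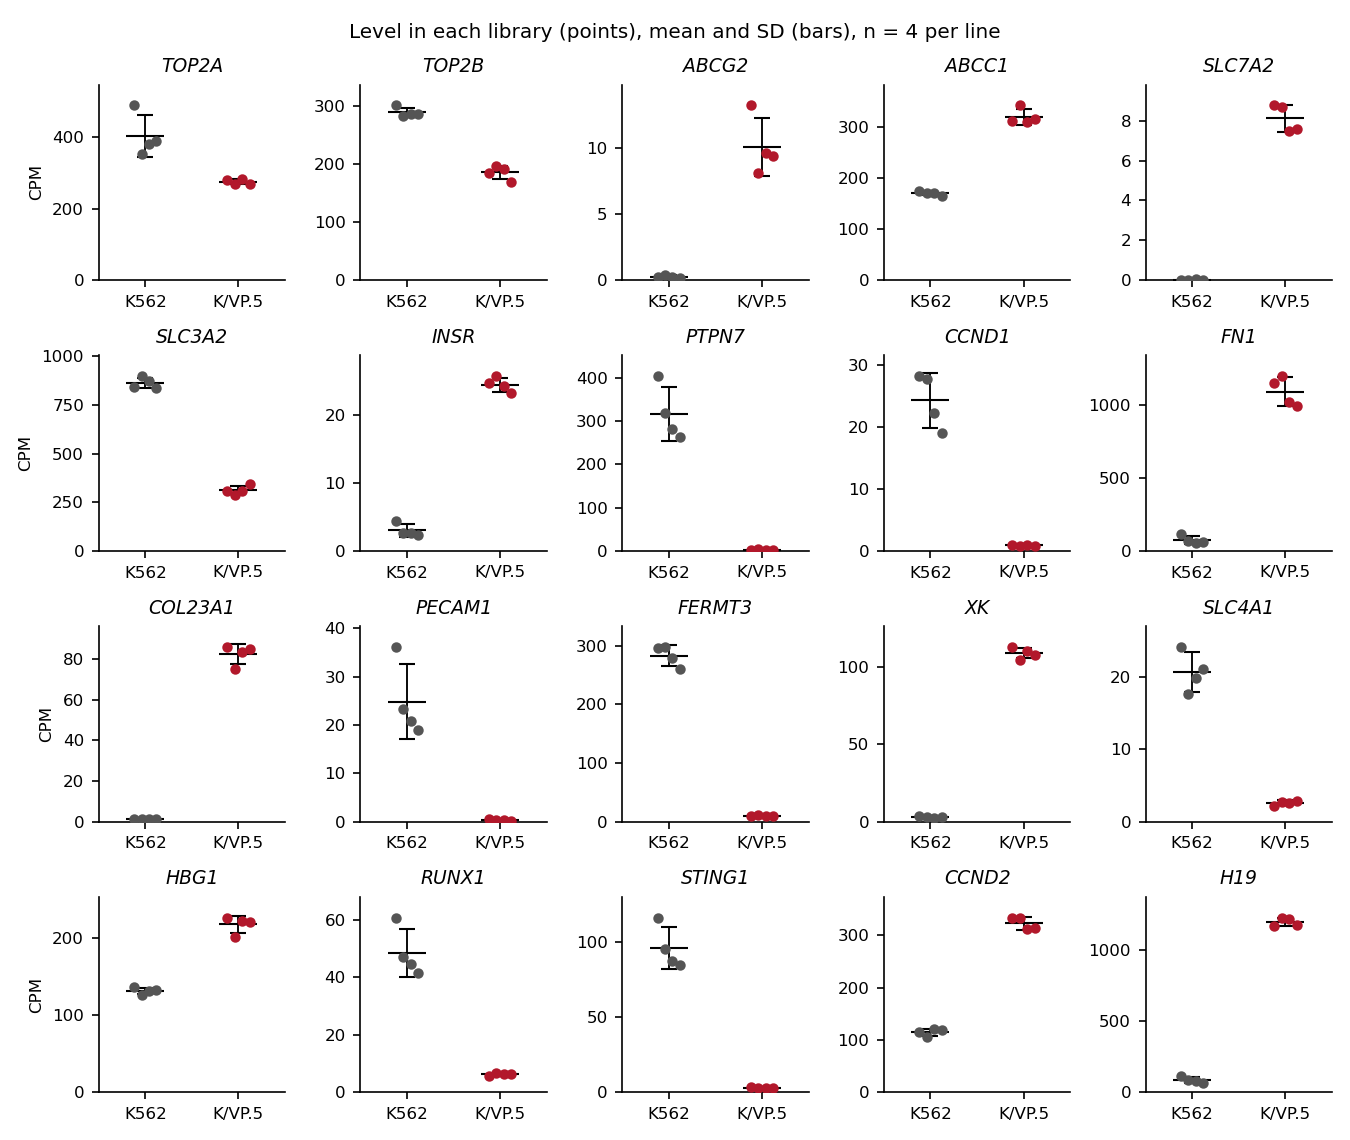
CPM of 20 genes in the 4 K562 (grey) and 4 K/VP.5 (red) libraries, each panel on its own linear axis from 0, with points for libraries and bars for the mean and SD. In all 20 panels the lines do not overlap, and TOP2A, TOP2B, ABCC1 and HBG1 are the genes among them that fell short of the fold cutoff.

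In the red cell lineage, 40.5% of tested membrane genes, 40% of globin genes, 18.5% of erythroid transcription factor genes and 11.1% of heme enzyme genes passed the cutoffs, beside 15.6% of all tested genes. Of 41 red cell membrane and blood group genes 37 were tested, 14 were higher and 1 was lower, and the median was 0.47. XK, a blood group protein, held 3.52, 2.81, 2.69 and 2.94 CPM in the K562 libraries and 113, 105, 110.3 and 108 CPM in the K/VP.5 libraries. The glycophorin genes GYPB and GYPE, which are similar in sequence and near each other on chromosome 4, rose together, GYPB from 1.03 ± 0.425 to 36.6 ± 1.16 CPM and GYPE from 2.19 ± 0.523 to 59.5 ± 3.92 CPM. SLC4A1, the band 3 anion exchanger, was the member that fell, from 24.1, 17.6, 19.9 and 21.1 CPM in K562 to 2.15, 2.71, 2.64 and 2.91 CPM in K/VP.5. ALAS2, the first enzyme of heme synthesis in red cells, rose from 33.9 ± 4.86 to 98 ± 5.79 CPM, 1 of 9 heme enzymes to pass, and 0 were lower in edgeR, DESeq2 or limma voom. At an unadjusted edgeR p under 0.05, 6 heme enzymes were higher and 2 lower. Of 10 globin genes, all tested, 3 were higher and 1 lower: HBE1, the embryonic gene, rose from 0.484 ± 0.0561 to 2.13 ± 0.14 CPM, HBD from 0.998 ± 0.18 to 3.06 ± 0.585 CPM and HBB from 0.173 ± 0.0679 to 0.73 ± 0.196 CPM, while HBQ1 fell from 20.03 ± 6 to 9.38 ± 2.01 CPM. HBQ1 did not pass the cutoffs without K562 replicate 1 or without K/VP.5 replicate 2 (log2 fold change -0.98 each), which left 0 globin genes lower. HBZ, the embryonic zeta-globin gene, held 138 ± 35.5 and 124 ± 23.5 CPM (adjusted p = 0.588), with overlap.

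Erythroid transcription factors were 3 higher and 2 lower of 27, all tested, at a median of -0.49. GATA1, the master regulator, held 366, 439.6, 398 and 345 CPM in K562 and 274, 245, 276 and 305 CPM in K/VP.5, and fell short of the cutoff. KLF1 was at 209.9 ± 17.5 and 201 ± 24.2 CPM (adjusted p = 0.642), with overlap, and TAL1 at 109 ± 9.37 and 171 ± 13.2 CPM. RUNX1, which acts in stem cells and megakaryocytes, stood at 60.8, 47.1, 44.7 and 41.6 CPM in the K562 libraries and 5.6, 6.89, 6.37 and 6.34 CPM in the K/VP.5 libraries (log2 fold change -2.95, SE 0.14). SOX6 fell from 9.81 ± 0.885 to 3.26 ± 0.239 CPM. BCL11A, a repressor of fetal globin, rose from 0.0767 ± 0.059 to 1.9 ± 0.301 CPM, KLF13 from 15.4 ± 3.1 to 70.6 ± 2.22 CPM and MAFK from 22.6 ± 4.07 to 49.1 ± 4.47 CPM. Without K562 replicate 1, MAFK did not pass, at a log2 fold change of 0.97.

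Of 46 megakaryocyte and platelet genes 27 were tested, 13 were lower (48.1%, beside 6.66% of all tested genes) and 3 higher (11.1%, near the 8.98% of all tested genes), with a median of -0.91. When only genes of at least 1 CPM in 4 samples were tested, 8 were lower. CAVIN2, a caveola protein of platelets, held 117, 119, 121 and 123 CPM in K562 and 12.3, 11.4, 11.6 and 13.7 CPM in K/VP.5. ARHGAP6, a GTPase-activating protein, fell from 58.7 ± 10.9 to 3.46 ± 0.216 CPM and the transcription factor ETS1 from 2.01 ± 0.515 to 0.107 ± 0.0661 CPM. The platelet integrin genes ITGA2B and ITGB3 were at 1.01 ± 0.0815 and 0.603 ± 0.148 CPM in K562 and 0.849 ± 0.106 and 0.693 ± 0.0672 CPM in K/VP.5, with overlap for both, and did not pass, and GP1BB had too few reads to be tested. CD9, MEIS1 and CD36 were the 3 that rose, MEIS1, a homeobox gene of stem cells and megakaryocytes, from 0.152 ± 0.0612 to 3.47 ± 0.647 CPM, and CD36, a fatty acid receptor, from 0.272 ± 0.109 to 2.49 ± 0.117 CPM. Myeloid and lymphoid genes were 2 higher and 8 lower of 20 tested (52 listed), 10% higher, near the 8.98%, and 40% lower, beside 6.66%. SPI1, the myeloid transcription factor PU.1, held 14.1, 9.3, 6.86 and 6.2 CPM in K562 and 1.05, 1.01, 0.869 and 1.08 CPM in K/VP.5, and the Fc receptor FCGR2A fell from 23.3 ± 17.1 to 4.36 ± 0.806 CPM. Without K562 replicate 1, in which FCGR2A was highest, its log2 fold change of -2.41 was -1.79. CEBPA, another myeloid factor, rose from 0.37 ± 0.144 to 1.51 ± 0.0658 CPM. Of 25 stem and progenitor genes 15 were tested, and MEIS1 was higher (6.67%, beside 8.98%) while RUNX1, ETV6 and KIT were lower (20%, beside 6.66%), KIT only with K562 replicate 1 (-0.90 without it). CD34 had too few reads to be tested.

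Markers of other cells that a culture could hold were counted too. Of 25 epithelial, fibroblast, endothelial and neural markers 14 were tested, 3 were higher (21.4%, beside 8.98% of all tested genes) and 2 lower (14.3%, beside 6.66%). Among the fibroblast markers, COL1A1 rose from 2.59 ± 1.41 to 22.5 ± 3.56 CPM and COL1A2 from 4.64 ± 1.64 to 30.8 ± 1.8 CPM, and the summed level of 4 fibroblast markers, these collagens included, was 4.56 to 12.1 CPM in K562 and 46.4 to 58.3 CPM in K/VP.5. LUM and DCN, matrix proteoglycans of fibroblasts, had too few reads to be tested. COL3A1, another fibroblast collagen, fell from 1.03 ± 0.474 to 0.133 ± 0.054 CPM. The summed level of 4 endothelial markers was 19 to 36.1 CPM in K562 and 0.305 to 0.625 CPM in K/VP.5. PECAM1 was the only 1 of these markers tested and made up nearly all of the K562 sum. The summed level of 4 epithelial markers was 156 to 196 CPM in K562 and 122 to 137 CPM in K/VP.5. Nearly all of it came from EPCAM, which did not pass the cutoffs. CDH1, the epithelial cadherin, was the member of those 4 that passed, and it rose from 0.275 ± 0.117 to 0.905 ± 0.207 CPM. CDH5 of the endothelial and KRT5 and KRT14 of the epithelial markers had at most 3 reads in all 8 libraries. The summed lymphoid markers were 25.9 to 53.7 CPM in K562 and 9.39 to 13 CPM in K/VP.5, where CD2 and MS4A1 had at most 3 reads in all 8 libraries. The part of other cells in these changes was not tested.

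Of 39 HOX genes 23 were tested and 14 were higher (60.9%, beside 8.98% of all tested genes), at a median of 1.30, while 0 were lower in edgeR, DESeq2 or limma voom. At an unadjusted edgeR p under 0.05, 16 were higher and 3 lower. HOX proteins set position along the body axis and take part in leukemia. HOXC12 rose from 0.132 ± 0.0471 to 3.68 ± 0.618 CPM and HOXD8 from 0.0873 ± 0.043 to 2.77 ± 0.261 CPM. Zinc finger genes of chromosome 19, most of which repress transposons and other genes, were 43 higher (25.1%, beside 8.98%) and 11 lower (6.43%, near the 6.66% of all tested genes) of 171 tested (249 listed), at a median of 0.30. ZNF714 fell from 42.9 ± 3.14 to 1.21 ± 0.0776 CPM and ZNF671 from 5.36 ± 0.414 to 0.187 ± 0.0437 CPM.

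Imprinted genes were 5 higher (26.3%, beside 8.98% of all tested genes) and 1 lower (5.26%, beside 6.66%) of 19 tested (30 listed), and without K562 replicate 4 the higher genes numbered 3. H19, a noncoding RNA made from the maternal copy, held 112, 87.3, 78.2 and 66 CPM in the K562 libraries and 1174, 1230.4, 1223 and 1176 CPM in the K/VP.5 libraries. PEG10, which is derived from a retrotransposon, rose from 0.0635 ± 0.0611 to 3.88 ± 0.732 CPM, and PLAGL1 on chromosome 6 was the member that fell. Cancer-testis antigens, normally limited to the germ line, were 3 higher (10%, near the 8.98% of all tested genes) and 17 lower (56.7%, beside 6.66%) of 30 tested (97 listed), at a median of -1.04, or -1.02 with members lacking reads in a line set at their bound. When only genes of at least 1 CPM in 4 samples were tested, 10 were lower. GAGE2E fell from 18.5 ± 4.93 to 0.762 ± 0.178 CPM, while MAGEC2 rose from 0.187 ± 0.0523 to 2.07 ± 0.375 CPM beside MAGEA9 and MAGEA9B. Members of the GAGE and MAGEA families share most of their sequence, so single members are uncertain. Among 44 DNA methylation and polycomb enzymes 43 were tested and 1 was higher (2.33%) and 2 lower (4.65%), beside 8.98% and 6.66% of all tested genes. DNMT3A, which sets new DNA methylation, held 52.4, 67.1, 70.4 and 68.9 CPM in K562 and 161, 174, 169.7 and 174 CPM in K/VP.5, and MBD1, a reader of methylated DNA, fell from 82.6 ± 5.58 to 36.3 ± 2.03 CPM and SUZ12, a polycomb subunit, from 108 ± 11.5 to 52.8 ± 3.01 CPM. SUZ12 did not pass without K562 replicate 1 (log2 fold change -0.98), without K/VP.5 replicate 4 (-0.99) or with upper-quartile scaling (-0.96), and the genes lower numbered 4 without K/VP.5 replicate 2.

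**Figure D5:**
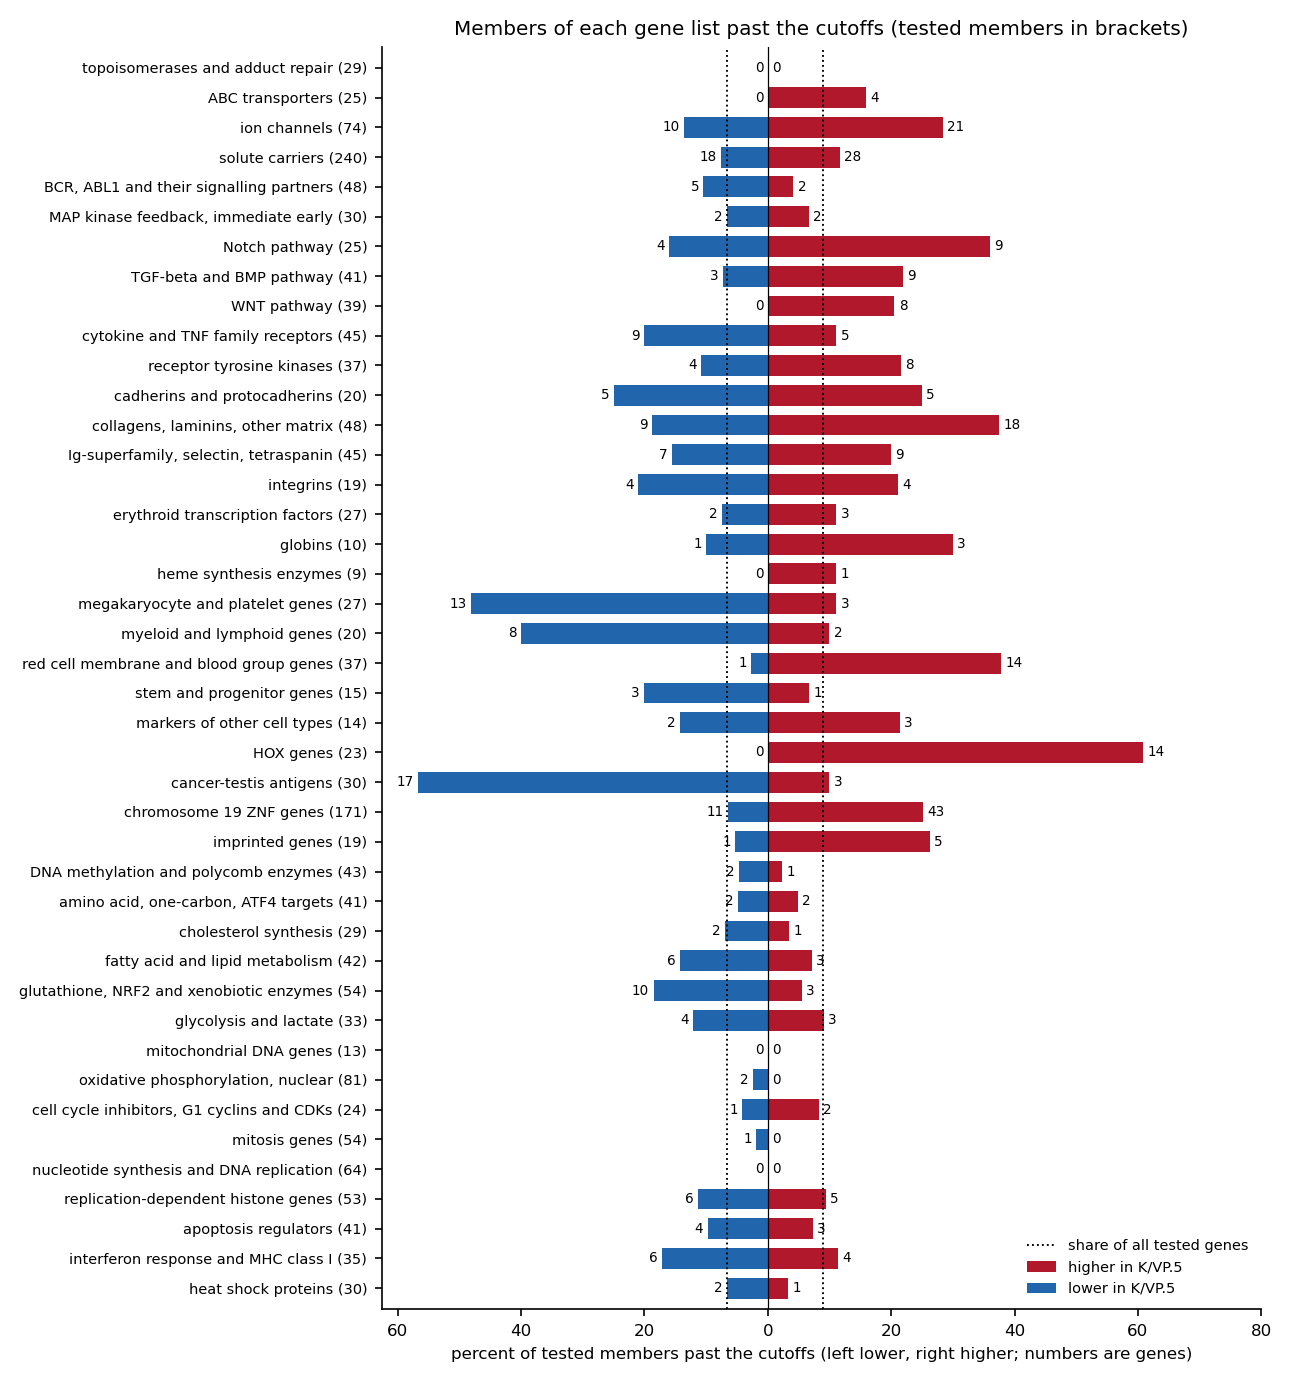
Share of the tested members of each of 42 gene lists that were higher (red, to the right) or lower (blue, to the left) in K/VP.5 past the cutoffs, in percent, with numbers of genes at the bars, tested members in brackets, and dotted lines at the shares among all tested genes, 8.98% higher and 6.66% lower. HOX genes (14 of 23) have the longest bar to the right and cancer-testis antigens (17 of 30) the longest to the left, and genes of DNA replication, mitosis and oxidative phosphorylation lie near 0.

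In metabolism, few genes of oxidative phosphorylation passed the cutoffs, and single enzymes of other pathways changed severalfold. Of 84 nuclear genes of oxidative phosphorylation 81 were tested, 2 were lower (2.47%, beside 6.66% of all tested genes) and 0 were higher (beside 8.98%) in edgeR, DESeq2 or limma voom. Those lower past the cutoffs numbered 0 without K562 replicate 1 and 1 without K/VP.5 replicate 2. At an unadjusted edgeR p under 0.05, 8 were higher and 34 lower, and the list's median log2 fold change was -0.18. The same 8 and 34 passed a 10% false discovery rate with any fold, beside 4882 and 4865 of all 18626 tested genes. The genes of mitochondrial DNA, 13 of 13 tested, had 0 past the cutoffs with the same tools, with 1 higher and 0 lower at an unadjusted p under 0.05, and 1 was lower without K562 replicate 3 or 4. Glycolysis and lactate genes were 3 higher and 4 lower of 33 tested (38 listed), 21.2% beside 15.6% of all tested genes. PDK3, a kinase that shuts pyruvate dehydrogenase, fell from 9.85 ± 2.6 to 0.411 ± 0.167 CPM, whereas its relative PDK2 rose from 1.3 ± 0.369 to 4.16 ± 0.429 CPM. PKLR, the pyruvate kinase of liver and red cells, held 55.8, 91.1, 83.7 and 82.5 CPM in K562 and 200.1, 219.8, 220.5 and 228 CPM in K/VP.5. ENO2, neuronal enolase, rose from 7.27 ± 1.35 to 27.2 ± 3.12 CPM. Genes of glutathione, NRF2 and drug-modifying enzymes were 3 higher (5.56%, beside 8.98%) and 10 lower (18.5%, beside 6.66%) of 54 tested (76 listed), at a median of -0.15. MGST1, a membrane glutathione transferase, held 43.4, 26.8, 28.3 and 29.7 CPM in K562 and 2.32, 2.26, 2.87 and 1.93 CPM in K/VP.5, and the sulfotransferase SULT1A1 fell from 8.78 ± 1.69 to 0.452 ± 0.079 CPM. ALDH3A2, a fatty aldehyde dehydrogenase, rose from 0.15 ± 0.0604 to 7.99 ± 0.391 CPM and the cytochrome P450 gene CYP2S1 from 2.76 ± 0.483 to 14.5 ± 0.671 CPM.

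Lipid genes were 3 higher (7.14%, beside 8.98% of all tested genes) and 6 lower (14.3%, beside 6.66%) of 42 tested (47 listed), 3 of them lower without K562 replicate 1. The acyl-CoA synthetase ACSL1 fell from 12.7 ± 1.58 to 1.11 ± 0.259 CPM and the desaturase FADS1 from 796 ± 181 to 349 ± 68.5 CPM, and SCD5, another desaturase, rose from 0.19 ± 0.138 to 2.67 ± 0.389 CPM. Of 29 cholesterol synthesis genes, all tested, 10.3% passed, beside 15.6% of all tested genes. MVD rose from 187 ± 20.9 to 498 ± 93.7 CPM and TM7SF2 and NSDHL fell, to 11.2 ± 1.22 and 29.2 ± 2.64 CPM. Without K562 replicate 1, NSDHL did not pass (log2 fold change -0.89, and -0.998 with upper-quartile scaling) and 2 genes were higher, as also without K/VP.5 replicate 4. In amino acid and one-carbon metabolism, 41 of 46 genes were tested and 2 were higher and 2 lower (4.88% in each direction, beside 8.98% and 6.66%). PSAT1, of serine synthesis, held 116, 94.6, 82.5 and 90.1 CPM in K562 and 20.3, 25.5, 21 and 20.4 CPM in K/VP.5, and SLC3A2 was the other that fell. ASS1, of arginine synthesis, rose from 1.04 ± 0.503 to 4.64 ± 0.952 CPM, and SLC1A4, a carrier of serine and alanine, from 4.36 ± 1.21 to 14.4 ± 1.29 CPM.

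Few genes of DNA replication and mitosis passed the cutoffs, which 15.6% of all tested genes did. All 64 genes of nucleotide synthesis and replication were tested, and 0 passed the cutoffs in edgeR, DESeq2 or limma voom. At an unadjusted edgeR p under 0.05, 21 were higher and 17 lower. The same numbers passed a 10% false discovery rate with any fold, beside 4882 and 4865 of all 18626 tested genes. Of 54 mitosis genes, all tested, CENPE, a motor of the kinetochore, was the only one past the cutoffs, falling from 74.7 ± 10.9 to 31.3 ± 0.964 CPM. The G1 regulators were 2 higher and 1 lower of 24 tested (26 listed), 12.5% beside 15.6% of all tested genes. CCND1, which encodes cyclin D1, held 28.2, 27.8, 22.4 and 19.1 CPM in the K562 libraries and 1, 0.851, 0.927 and 0.779 CPM in the K/VP.5 libraries, whereas CCND2, or cyclin D2, held 115, 105, 120.2 and 119 CPM in K562 and 333, 333, 312 and 313 CPM in K/VP.5. Their partner kinase CDK6 rose from 115 ± 15.9 to 311 ± 10.1 CPM. MYC held 417 ± 25.2 and 508 ± 14.3 CPM, short of the cutoff.

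Of 49 apoptosis regulators 41 were tested, 3 were higher and 4 lower, a share of 17.1% near the 15.6% of all tested genes. GSDME, a pore protein that caspases cut, rose from 1.39 ± 0.273 to 7.99 ± 1.65 CPM, and the BH3 genes HRK and BMF rose at low levels to 0.437 ± 0.0258 and 1.03 ± 0.369 CPM. Besides MLKL, the inflammatory caspase gene CASP4 fell from 1.4 ± 0.408 to 0.275 ± 0.138 CPM. BCL2L1, which encodes the survival protein BCL-XL, was at 108 ± 12.9 and 72.2 ± 2.3 CPM, short of the cutoff.

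Among 59 interferon response and MHC class I genes 35 were tested, 4 were higher (11.4%, beside 8.98% of all tested genes) and 6 lower (17.1%, beside 6.66%), at a median of -0.35. STING1, a sensor adaptor for DNA in the cytosol, held 116, 95.1, 87.2 and 84.7 CPM in the K562 libraries and 3.72, 3.03, 2.92 and 3.19 CPM in the K/VP.5 libraries (log2 fold change -4.89, SE 0.13). IFITM2 fell from 8.53 ± 3.82 to 0.425 ± 0.174 CPM and the RNA sensor IFIH1 from 2.81 ± 0.484 to 0.431 ± 0.193 CPM. HLA-C, an MHC class I gene, held 0.055, 0.644, 0.188 and 0.122 CPM in K562 and 11.2, 8.75, 9.9 and 9.76 CPM in K/VP.5, HLA-B rose from 0.376 ± 0.336 to 1.2 ± 0.191 CPM, and USP18, which removes ISG15, from 4.11 ± 0.549 to 12.7 ± 0.931 CPM. K562 replicate 2 held the most HLA-B and HLA-C reads of the K562 libraries, and without it the log2 fold changes of 5.22 for HLA-C and 1.64 for HLA-B became 6.28 and 2.44. Reads of HLA genes can be shared among them. Their partner B2M was at 183 ± 33.4 and 117 ± 12.3 CPM, short of the cutoff. Of 33 heat shock genes 30 were tested and 10% passed, beside 15.6% of all tested genes. The chaperone CRYAB rose from 3.61 ± 0.493 to 11.8 ± 1.82 CPM while BAG3 fell from 68.2 ± 4.05 to 33.5 ± 3.65 CPM and HSPA6 from 1.44 ± 0.245 to 0.616 ± 0.0573 CPM. BAG3 did not pass without K/VP.5 replicate 1 (log2 fold change -0.97) or with upper-quartile scaling (-0.96).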

How the data were processed

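Total RNA from 4 samples of each line was sequenced as 150-bp paired-end reads, which the authors aligned to GRCh38 with HISAT2 and summarized with featureCounts, per the study's methods and the labels. The deposited values are raw whole-number counts per gene, with no row that names no gene. The annotation release, strand setting and handling of multi-mapping reads are not given in the sources used here. Gene names and coordinates were taken from GENCODE 44, which held 60401 of the 60671 gene identifiers. Counts were filtered with filterByExpr (minimum count 10), scaled by TMM and fitted with edgeR 4.0.16 (R 4.3.3) over all 12 samples by line, using the quasi-likelihood F test with Benjamini-Hochberg adjustment over 18626 genes and cutoffs of a 2-fold change and a 10% false discovery rate. Standard errors were derived from the estimate and its F statistic. CPM used the summed counts of tested genes times the TMM factor. The script was tested on simulated counts. Alternatives were limma 3.58.1 (voom), DESeq2 1.42.0, other filters, scalings and cutoffs, and each replicate left out.

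The 42 gene lists and the genes named were chosen with earlier results of these data known. Named were the 12 largest rises and falls of at least 10 mean CPM without overlap, the 10 highest genes switched on and off, up to 4 members per list and direction with the largest change, and chosen target, transport and lineage genes, of which some are given as examples. FERMT3, FN1, GATA4, NKX2-2, PHACTR2, PTPN7, RELN, SLCO4C1, SOD3 and UTRN were named outside these rules after their values were seen, as were genes named as neighbours. Chromosomes were summarized in place of arms, since no band positions were used here. Some genes are not reported here.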

Additional observations from a re-analysis of the deposited data

Results flagged for a closer look

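Dixon's test was applied to the 4 values of each line for each named gene, 402 groups in all, and marked 27 groups in 26 genes (6.72%), where chance marks about 1 in 20 groups. K562 replicate 1 was the marked library for 12 genes, ZNF254 included. It was the highest K562 library for CD53 (24.4 CPM), DUSP10 (11.3 CPM), ETV6 (39.4 CPM), H2BC9 (147 CPM), HBB (0.275 CPM), KCNMA1 (28.3 CPM), NKD2 (0.632 CPM), OR51B5 (101 CPM), PHACTR2 (91.2 CPM) and TOP2B (302 CPM), and the lowest for MAFK (16.6 CPM). This is the library that also stood apart over all genes.

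Among the other K562 libraries, KCNE3 was high in replicate 2 (13.1 CPM), and IL1R1 and ZNF714 were low in replicates 3 (3.34 CPM) and 4 (38.2 CPM). In K/VP.5, replicate 2 was high for ABCC1 (342 CPM), COL3A1 (0.213 CPM) and PSAT1 (25.5 CPM), and replicate 4 was low for CDK6 (296 CPM) and PTPN6 (2.03 CPM) and high for ALDH3A2 (8.57 CPM) and SPRY1 (4.41 CPM). Of all these genes, the lines overlapped for none.

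The remaining marks are 1 to 3 reads in the only library with any read of a gene close to silent in that line. They were ZNF254 in K562 replicate 1 (0.0275 CPM), ZNF558 in K562 replicate 2 (0.0230 CPM), PM20D2 in K562 replicate 3 (0.0807 CPM), SPRY1 and ZNF551 in K562 replicate 4 (0.0243 CPM each), and OR51I2 in K/VP.5 replicate 2 (0.0266 CPM).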

How the results depend on the processing

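The count of 2914 genes past the cutoffs stayed within 1.5 times under DESeq2 (2912), RLE scaling (2906), upper-quartile scaling (2925), limma voom (2887) and a fit of the 8 libraries alone (2744). Without the filter on low counts it was 4332, just within that limit, with 2485 higher and 1847 lower among 42540 tested genes. Testing only genes of at least 1 CPM in 4 samples gave 1923 genes, 1089 of them higher, and leaving out the fold cutoff gave 9747, with 4882 higher and 4865 lower. Leaving out 1 library at a time gave 2975 to 3123 genes, 1649 to 1780 higher and 1208 to 1386 lower, 73 to 87 switched on and 29 to 33 switched off. Requiring 0 reads in the low line left 12 genes switched on and 2 off, and requiring 5 CPM in the other line left 21 and 6. Tested genes inside windows of median 1 or more numbered 304, or 527 in windows of 10 genes, 103 in windows of 40 and 143 with only protein-coding genes, and those inside windows of -1 or less numbered 200, or 314 and 61 in windows of 10 and 40 genes. Replicate numbers were not treated as pairs, and 4 replicates are too few to settle whether they are. Deviations of same-numbered libraries had r from -0.0137 to 0.320, with a mean of 0.126 beside -0.0415 for other numbers. By this measure 3 of 8 libraries were best matched by their own number, and a replicate block gave 2924 genes. Of 183 named genes past the cutoffs, 175 stayed past them in each of the 16 fits that tested them (10 of the 183 were too low for the 1 CPM filter), and the exceptions were BAG3, H1-3, HBQ1, KIT, MAFK, NSDHL, SPRY4 and SUZ12. Small differences changed sign when 1 library was left out, with ranges of -0.0147 to 0.0804 for BCR (negative without K562 replicate 1), -0.00138 to 0.162 for HBG2 (negative without K562 replicate 2), -0.260 to 0.0116 for HBZ (positive without K562 replicate 1) and -0.110 to 0.0188 for KLF1 (positive without K/VP.5 replicate 2, and 0.00707 with upper-quartile scaling), and the cause was not tested. The 1 CPM filter, which tests fewer genes, also left fewer members called among the receptor tyrosine kinases (5 higher), matrix proteins (5 lower), myeloid and lymphoid genes (5 lower), imprinted genes (2 higher), integrins (2 lower), cadherins (1 higher) and histone genes (1 higher). At 0.0691 to 0.102 CPM for 3 reads, differences among genes below about that level were not detectable.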
